A study of Mus musculus with 7 samples.

Results

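Cytosolic ribosomal protein genes encode the protein components of the large and small subunits of the cytosolic ribosome. They were chosen by symbol alone, as *Rpl* or *Rps* followed by a number and at most 1 further letter and digit, together with *Rplp0*, *Rplp1*, *Rplp2* and *Rpsa*, without the *Rps6k* kinases and without pseudogenes named with -ps. The rule found 84 genes among 14817 identifiers in the table of read counts, and all 84 were among the 14779 genes that passed the filter on low counts. The rule itself used no expression value, but the members were chosen with earlier results of these data known. Of the 84, 49 were counted under the large subunit and 35 under the small subunit. The annotation classes 4 of the 84, *Rps3a3* and *Rps4l* among them, as processed pseudogenes without a coding sequence. These 4 were kept in all counts and medians of members.

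The study compared primary hepatocytes of *Wdr6* whole-body knockout mice (WDR6-WKO, 3 libraries) with those of wild-type mice (WT, 4 libraries). According to the study's methods and the labels, the knockout carries a CRISPR–Cas9 deletion within *Wdr6* in every tissue, the mice were male, and the cells were isolated by collagenase perfusion and kept overnight in serum-containing William's E medium without further treatment. The methods state a default age for the mice of the study and none for the donors of these cells in particular. The labels do not say whether each library came from a separate mouse, so p-values measure only the spread between these libraries. A hepatocyte carries out most of the metabolic and secretory work of the liver. *Wdr6* encodes a WD-repeat protein known as a partner of the tRNA methyltransferase FTSJ1.

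Ribosomal proteins are made in near-equal amounts and assembled with ribosomal RNA in the nucleolus, so their mRNAs are among the most abundant of growing and secretory cells. In mammals these mRNAs begin with a stretch of pyrimidines, the terminal oligopyrimidine (TOP) motif, through which mTOR and LARP1 set their translation and stability. Most of these genes also have many processed pseudogenes, intronless copies that arose from their mRNAs and still resemble them closely, which is a known difficulty for counting short reads.

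Sequence around the annotated start site was printed for the members past the test described below and for the members of highest level per length, where the RefSeq table for GRCm38.p6 held an entry. The table had an entry for 60 of the 84 members. Each window runs from 15 bases before the start through the 15 bases that begin at it, written 5′ to 3′ on the gene's strand, with the longest unbroken run of C and T in capitals. The first 7 are members past the test.
Rpl27 (chr11:101442230-101442259, plus strand): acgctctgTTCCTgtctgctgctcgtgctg
Rpl37 (chr15:5116598-5116627, plus strand): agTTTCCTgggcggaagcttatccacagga
Rpl37a (chr1:72711245-72711274, plus strand): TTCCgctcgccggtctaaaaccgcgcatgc
Rpl38 (chr11:114668565-114668594, plus strand): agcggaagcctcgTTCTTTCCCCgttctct
Rpl41 (chr10:128549154-128549183, minus strand): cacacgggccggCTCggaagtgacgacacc
Rps27l (chr9:66946071-66946100, plus strand): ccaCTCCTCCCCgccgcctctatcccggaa
Rps28 (chr17:33824548-33824577, minus strand): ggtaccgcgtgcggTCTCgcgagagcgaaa
Rplp0 (chr5:115559452-115559481, plus strand): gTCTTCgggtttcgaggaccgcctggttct
Rpsa (chr9:120127751-120127780, plus strand): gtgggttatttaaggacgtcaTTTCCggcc
Rps2 (chr17:24720048-24720077, plus strand): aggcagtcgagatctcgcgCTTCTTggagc
Rpl13 (chr8:123102335-123102364, plus strand): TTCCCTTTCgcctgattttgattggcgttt

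Over the 60 entries, a pyrimidine run of at least 8 bases lay in the window of 25 members (41.7%), against 12.03% of 21262 protein-coding promoters. Among the members printed, the longest run was the 10 bases of *Rpl38* and the shortest the 3 bases of *Rpl41*. The starts used for these lay 32 and 15 bases from the GENCODE start. Of the printed members, only *Rps27l*, *Rps28*, *Rplp0*, *Rps2* and *Rpl13* had the same start in both annotations. The start used by RefSeq lay within 5 bases of the GENCODE start for only 20 of the 60, and 6 of these 20 had such a run. A window without a run shows only that these letters are absent there. The letters CCGGAAG, the core of sites bound by ETS-family factors, were sought on either strand of the 300 bases from 250 before to 50 after the start. They were found in 38.3% of the members and in 11.6% of all promoters, and in 4 of the 20 members whose starts agreed.

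The libraries held 17816913 to 23668940 counted reads, with WDR6-WKO 3 the smallest. *Wdr6* was at 49.01, 40.6, 40.9 and 45.6 CPM in WT and at 2.58, 2.32 and 2.23 in WDR6-WKO, so each library matched its label. All 8 hepatocyte markers were detected, and 3 of them were lower in WDR6-WKO. Summed over 12 markers of Kupffer cells and macrophages, WT ranged between 860 and 939 CPM and WDR6-WKO between 993 and 1191 CPM, and 3 of the 12 passed the test, all higher. The 4 markers chosen for T, B and red cells were not analysed here, having no row in the table used. CPM are the reads of a gene relative to the total of its library, here scaled by the trimmed mean of M-values (TMM).

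Together the 84 genes took 2.90, 2.92, 2.77 and 2.87% of the counted reads in WT 1 to 4, and 3.17, 3.42 and 2.88% in WDR6-WKO 1 to 3. The share was higher than in every WT library in WDR6-WKO 1 and 2, whereas WDR6-WKO 3 lay inside the WT range. In bulk samples, fewer cells of a type and less RNA per cell cannot be told apart. Levels as counted spread widely among members, with a median of 299.9 CPM and a highest mean of 1421 CPM. The lowest mean, 1.81 CPM, was that of the processed pseudogene *Rps3a3*.

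Expressed per kilobase of the annotated transcript chosen for each gene, *Rplp1* ranked first with a mean of 2029 CPM per kb. *Rps2* followed at 1077, *Rplp0* at 1046, *Rpsa* at 818 and *Rpl13* at 811 CPM per kb. The ranking depends on the transcript chosen, which for some members was long beside its coding sequence. For *Rps15a* it had 5130 bases, 390 of them coding, so a mean of 274 CPM became 53.5 CPM per kb. *Rplp0* and *Rplp1* form the acidic stalk of the large subunit that recruits translation factors, *Rps2* and *Rpsa* lie in the small subunit, and *Rpl13* lies in the large. None of these 5 passed the test between genotypes. *Rplp0* was at 1396 ± 27.7 CPM in WT (s.d., n = 4) and 1455 ± 78.2 CPM in WDR6-WKO (s.d., n = 3), and *Rplp1* at 1004 ± 44.5 and 1023 ± 94.6 CPM. *Rpsa* differed least, with 1311, 1298, 1321 and 1280 CPM in WT and 1279, 1331 and 1342 CPM in WDR6-WKO, and the groups overlapped (log2 fold change of 0.02 ± 0.04 (s.e.), edgeR adjusted P = 0.848 after Benjamini–Hochberg (BH) correction). *Rps2*, with 1068, 1036, 952 and 1012 CPM in WT and 1178, 1266 and 1010 CPM in WDR6-WKO, was high in WDR6-WKO 1 and 2 only (edgeR BH-adjusted P = 0.0907).

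Of the 84 members, 10 (7 of the large and 3 of the small subunit) were higher in WDR6-WKO at an edgeR BH-adjusted P below 0.05, and 0 were lower. Over all genes tested, 6.65% were higher and 6.18% lower by the same rule. At an unadjusted P below 0.05, 27 members were higher and 0 lower, against 14.6% and 13.6% of all genes. DESeq2 called 15 members higher, against 7.04% of all genes (1003 genes), and 0 lower, where it called 997 genes lower in all, and limma-voom 13 higher and 0 lower, against 6.39% and 6.06%. Their size was modest: the log2 fold changes of the 10 ran from 0.20 to 0.47, 1.15-fold to 1.38-fold.

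*Rpl23a* (GRCm38, chr11:78180932-78183584, minus strand), whose protein sits at the exit of the nascent-chain tunnel, had the smallest P. It was at 126, 139, 122 and 143 CPM in WT and at 168, 183 and 159 CPM in WDR6-WKO. All 3 WDR6-WKO libraries lay above all 4 WT libraries (log2 fold change of 0.36 ± 0.06, edgeR BH-adjusted P = 0.00159). *Rpl37a* was at 154, 181, 155 and 181 CPM in WT and at 201, 224 and 202 CPM in WDR6-WKO. Again the groups were apart (0.32 ± 0.07 on the log2 scale, edgeR BH-adjusted P = 0.00503).

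*Rpl27* was at 232, 236, 215 and 218 CPM in WT, and at 310, 342 and 247 CPM in WDR6-WKO. Its 2 highest libraries stood well clear of WT, and WDR6-WKO 3 lay just above it (log2 fold change of 0.41 ± 0.09, edgeR BH-adjusted P = 0.0136). *Rpl41*, which encodes the shortest of the ribosomal proteins, was at 301, 341, 304 and 346 CPM in WT and at 458, 519 and 359 CPM in WDR6-WKO (0.47 ± 0.12, edgeR BH-adjusted P = 0.0415). *Rpl37* was at 84.2, 99.4, 82.6 and 93.6 CPM in WT, and at 126, 145 and 98.4 CPM in WDR6-WKO. It was the one called member whose groups overlapped, as WDR6-WKO 3 fell below WT 2 (0.45 ± 0.12, edgeR BH-adjusted P = 0.0451). *Rpl32* (GRCm38, chr6:115805505-115808747, minus strand) and *Rpl38* completed the large-subunit calls, at log2 fold changes of 0.23 and 0.27. *Rpl32* was at 330, 328, 317 and 320 CPM in WT and at 382, 424 and 336 CPM in WDR6-WKO. *Rpl38*, a gene known for its part in the selective translation of *Hox* mRNAs, was at 69.6, 78.6, 66.6 and 77.8 CPM in WT and at 88.4, 93.7 and 83.2 CPM in WDR6-WKO.

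The 3 small-subunit calls were *Rps28*, *Rps4l* and *Rps27l*. *Rps28* was at 23.2, 30.2, 23.1 and 29.1 CPM in WT and at 33.9, 36.4 and 34.5 CPM in WDR6-WKO, with no overlap (log2 fold change of 0.40 ± 0.09, edgeR BH-adjusted P = 0.0103). *Rps4l* (GRCm38, chr6:148354656-148355598, plus strand), a copy of *Rps4x* that the annotation classes as a transcribed processed pseudogene, was at 41.4, 43.7, 40.5 and 40.5 CPM in WT and at 50.1, 55.1 and 48.9 CPM in WDR6-WKO (0.31 ± 0.06, edgeR BH-adjusted P = 0.00458). *Rps27l*, a paralog of *Rps27* and a known p53 target, was at 147, 155, 150 and 163 CPM in WT and at 173, 194 and 163 CPM in WDR6-WKO (0.20 ± 0.06, edgeR BH-adjusted P = 0.0403). In *Rps27l* the lowest WDR6-WKO library and the highest WT library nearly met.

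**Figure D1:**
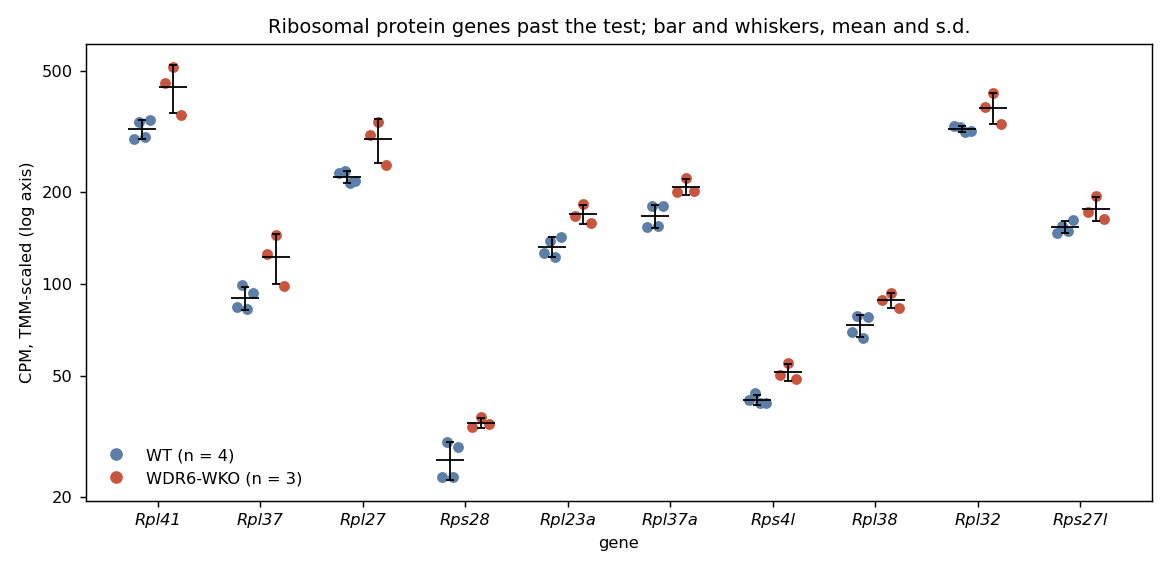
CPM (TMM-scaled, log axis) of the 10 members past the test in each library of WT (blue, n = 4) and WDR6-WKO (red, n = 3), with mean and s.d., ordered by log2 fold change from *Rpl41* (0.47) to *Rps27l* (0.20). The red points lie above all blue points in each gene except *Rpl37*.

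Paralogs and their parents were not always called together, and the difference between them was not tested. *Rps4x* was at 644, 670, 629 and 649 CPM in WT and at 599, 639 and 670 CPM in WDR6-WKO, so the groups overlapped (log2 fold change of -0.03, edgeR BH-adjusted P = 0.777). *Rps27* was at 75.3, 95.0, 82.0 and 102 CPM in WT and at 87.2, 98.4 and 111 CPM in WDR6-WKO (edgeR BH-adjusted P = 0.389). *Rps27rt*, a retrotransposed copy outside the symbol rule, was at 16.9, 20.9, 19.6 and 20.7 CPM in WT and at 27.7, 31.3 and 32.6 CPM in WDR6-WKO, with no overlap (0.64 ± 0.09, edgeR BH-adjusted P = 0.000196). Nearly all of *Rps27*, 98.6% of its 50-base sequences, also occurs in transcripts of other genes. The remaining pairs gave no call: *Rpl7* and *Rpl7l1* had log2 fold changes of 0.01 and -0.02, *Rpl22* and *Rpl22l1* of 0.15 and -0.06, and the parents *Rpl3*, *Rpl10* and *Rpl39* of -0.03, 0.03 and 0.14.

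Several members that did not pass the test are known for particular functions. *Rpl5* and *Rpl11*, which bind and inhibit MDM2 as part of the 5S ribonucleoprotein, had log2 fold changes of 0.06 and 0.24 (edgeR BH-adjusted P = 0.415 and 0.176). *Rps6*, the substrate of S6 kinase, was at 508, 562, 516 and 542 CPM in WT and at 578, 636 and 565 CPM in WDR6-WKO. Its groups were apart, yet it missed the threshold (log2 fold change of 0.16 ± 0.05, edgeR BH-adjusted P = 0.0643). The same held for *Rps19*, the gene most often mutated in Diamond–Blackfan anaemia, with 290 to 306 CPM in WT and 310 to 355 CPM in WDR6-WKO (0.14 ± 0.05, edgeR BH-adjusted P = 0.0842). The stalk gene *Rplp2* was at 193, 181, 171 and 170 CPM in WT and at 241, 271 and 166 CPM in WDR6-WKO, with WDR6-WKO 3 below all of WT (edgeR BH-adjusted P = 0.236). *Rpl13a*, a subunit of the GAIT complex of myeloid cells, had a log2 fold change of 0.27 ± 0.13 (edgeR BH-adjusted P = 0.209).

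The largest change in size was that of *Rps27a*, which encodes a ribosomal protein fused to ubiquitin. It was at 149, 176, 93.7 and 238 CPM in WT and at 287, 398 and 274 CPM in WDR6-WKO. All WDR6-WKO libraries were higher than all WT libraries, yet WT alone spanned 93.7 to 238 CPM, and the change missed the threshold (log2 fold change of 0.96 ± 0.34, edgeR BH-adjusted P = 0.149). *Rpl21* (0.49 ± 0.31) and *Rpl36* (0.48 ± 0.16) came next. *Rpl36* was at 128, 128, 125 and 133 CPM in WT and at 186, 219 and 132 CPM in WDR6-WKO, so 2 libraries were high and the third was at the WT level (edgeR BH-adjusted P = 0.103). At the other end stood *Rps3a3* (-0.15), an intronless copy at 1.21 to 2.55 CPM, then *Rpl12* (-0.07) and *Rpl22l1* (-0.06), none of which passed the test.

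**Figure D2:**
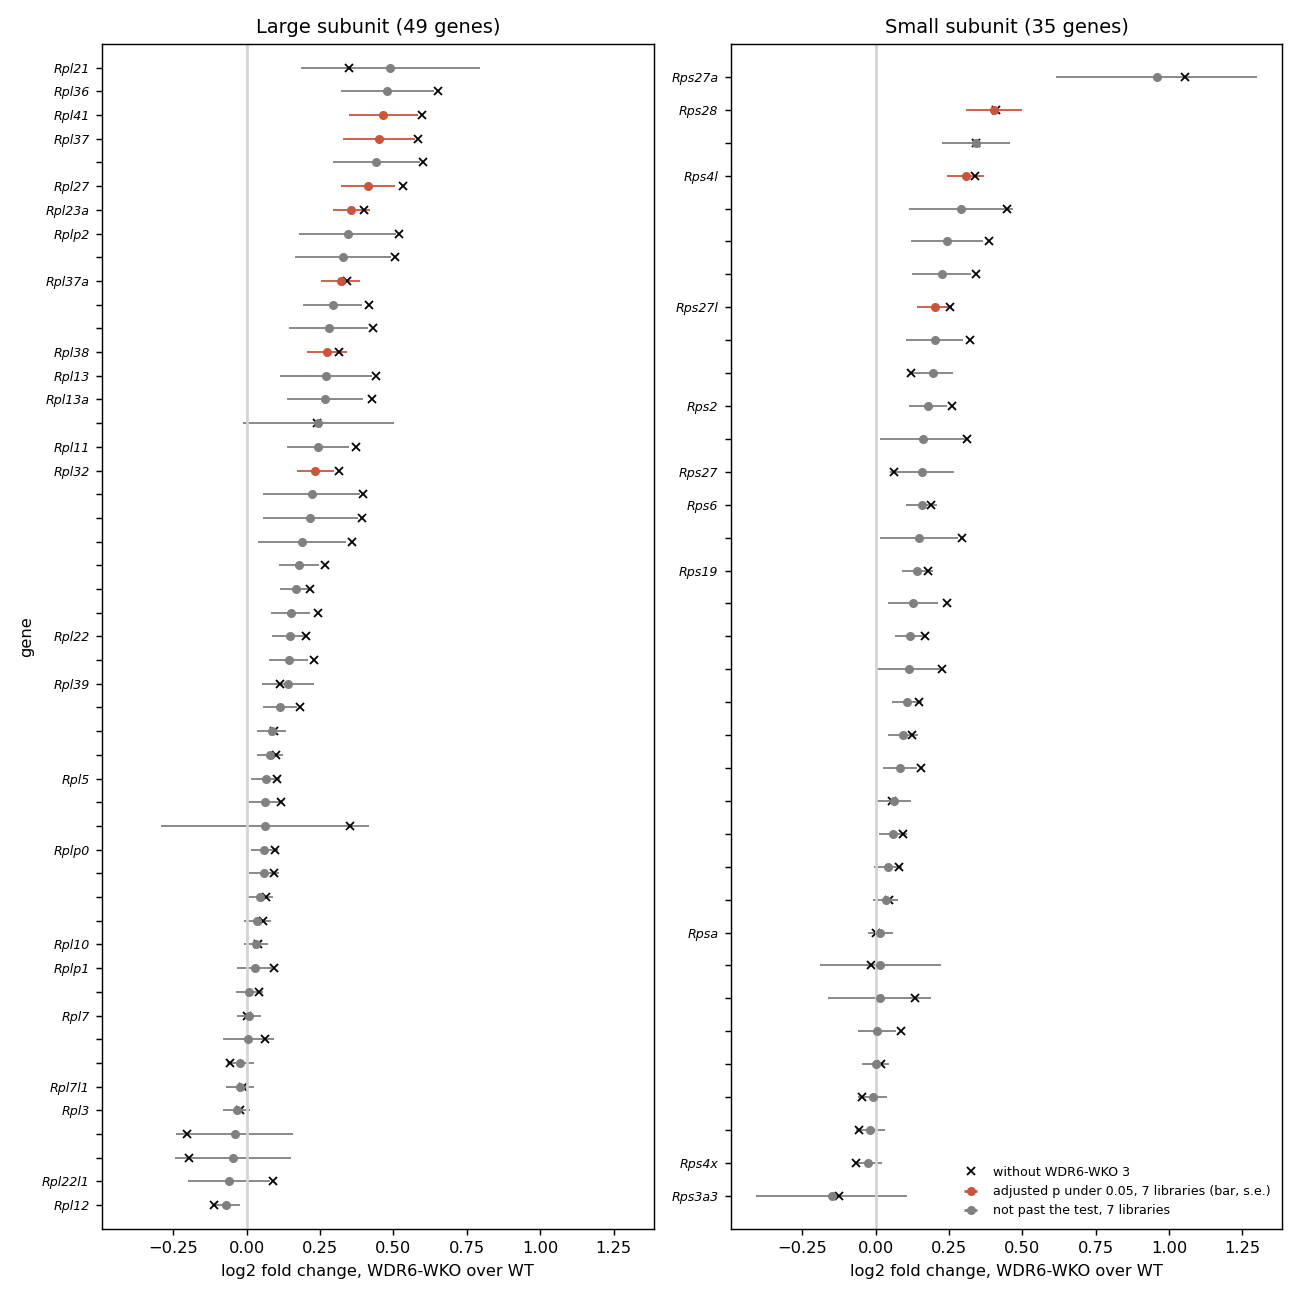
Log2 fold change of WDR6-WKO over WT with its s.e. for the 49 large-subunit and 35 small-subunit genes (red, past the test; grey, not), and the value without WDR6-WKO 3 (cross); every gene is drawn, and the genes of the naming rule are labelled. Most points lie right of 0, the medians being 0.15 and 0.12, and most crosses lie further right than their points.

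Of the 84 log2 fold changes, 73 were above 0 and 11 below, with a median of 0.14 against 0.00507 over all genes tested, of which 51.2% were above 0. The median was 0.15 over the large subunit and 0.12 over the small. The groups did not overlap in 15 members, all higher in WDR6-WKO, against 11.8% of all genes higher and 11.7% lower. Applying the thresholds of the study, a log2 fold change of 0.35 or more in either direction and an unadjusted P below 0.05, gave 8 members higher and 0 lower, against 6.42% of all genes higher and 3.94% lower. These 8 were *Rpl23a*, *Rps28*, *Rpl27*, *Rpl41*, *Rpl37*, *Rpl35a*, *Rpl36* and *Rps27a*.

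Within WDR6-WKO the libraries were ordered alike in most members. WDR6-WKO 2 was the highest of the 3 in 71 members, and WDR6-WKO 3 was the lowest in 61. For each member the log2 CPM of a library was set against the WT mean of that gene. The median of this difference over the 84 genes was 0.00, 0.03, -0.04 and 0.00 in WT 1 to 4, and 0.13, 0.25 and 0.00 in WDR6-WKO 1 to 3. WDR6-WKO 1 and 2 both exceeded the highest WT library in 49 members, against 23.5% of all genes tested. In 34 of these 49, WDR6-WKO 3 did not. The summed Kupffer cell and macrophage markers had the same order, at 1109, 1191 and 993 CPM in WDR6-WKO 1 to 3. The summed hepatocyte markers had the reverse one, at 13136, 12461 and 14393 CPM. Single markers did not all follow these sums. The hepatocyte markers *Apoa1*, *Hnf4a*, *Ttr* and *Tat* were lowest in WDR6-WKO 3, and the rest were highest there. The macrophage markers *Lyz2*, *Vsig4*, *Cd68* and *Adgre1* were highest in WDR6-WKO 3, and the rest were lowest there. The part of these cell types in the result was not tested. The s.d. was larger in WDR6-WKO than in WT in 73 members, with a median coefficient of variation of 9.50% against 4.64%. Over all genes tested, the medians were 9.28% and 6.84%.

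**Figure D3:**
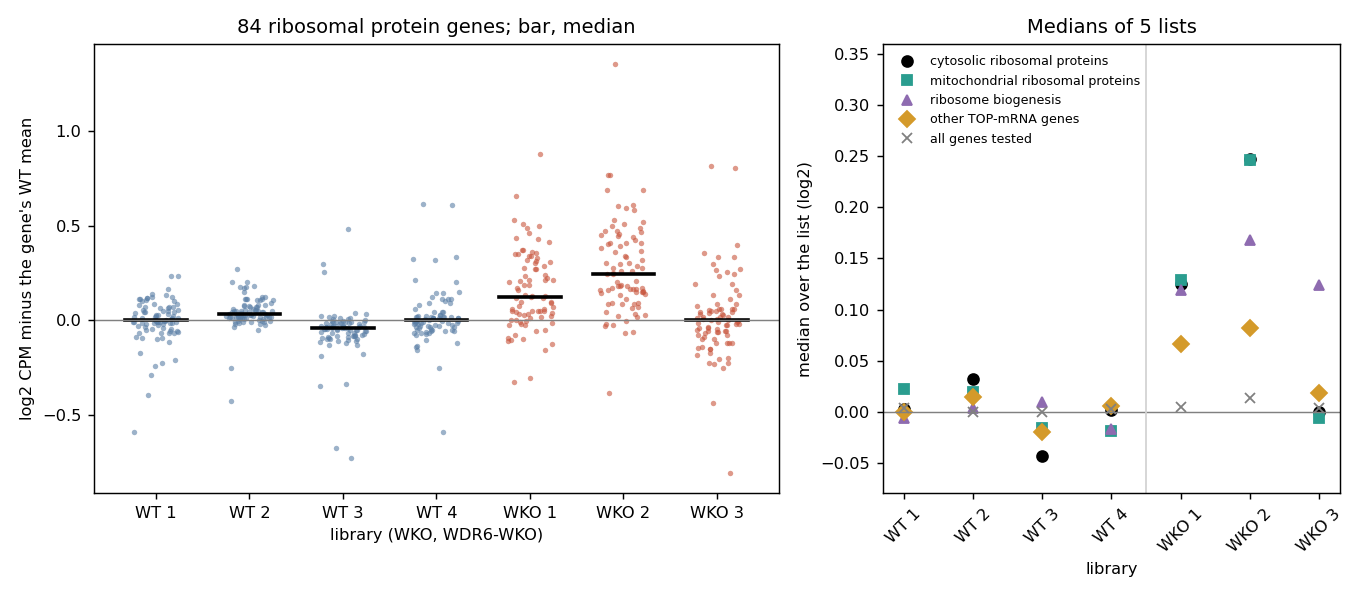
Left, log2 CPM of each of the 84 genes minus its WT mean in each library, with the median as a bar; right, the same median for 5 gene lists. The ribosomal protein median is 0.13, 0.25 and 0.00 in WDR6-WKO 1 to 3, whereas that of the ribosome biogenesis genes is 0.12, 0.17 and 0.12.

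The number of calls therefore depended on which WDR6-WKO libraries entered. Without WDR6-WKO 3, 43 members were higher and 1, *Rpl12*, was lower, where 14.5% of all genes tested were higher and 14.1% lower; the 43 contained all 10 calls made with 7 libraries. Without WDR6-WKO 2, 5 members were higher, against 3.85% of all genes, and without WDR6-WKO 1 there were 4, against 4.08%. *Rpl23a*, *Rps4l*, *Rpl37a* and *Rps28* were called in each of these 3 fits. Leaving out a WT library also lowered the count, to 6 without WT 1 (5.03% of all genes) and to 5 without WT 3 (4.33%). With the replicate number as a block, a fit that leaves out WT 4, 20 members were higher, against 6.41%. Part of the gain without WDR6-WKO 3 was shared with the table as a whole, whose higher calls went from 983 to 2150. *Rpl36* illustrates it: its log2 fold change went from 0.48 to 0.65 and its edgeR BH-adjusted P from 0.103 to 8.39e-11.

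The called members were shorter than the others. The 9 called members with an annotated coding sequence had a median coding length of 276 bases, and the 71 others one of 474 bases. Over 80 members the log2 fold change was related to coding length with a Spearman coefficient of -0.46, given as a description across genes that share libraries. Of the 10 members coding for at most 300 bases, 6 were called higher, and their median log2 fold change was 0.30. All 9 called members with a coding sequence were among the 49 of at most 500 bases, and the 31 longer members had a median of 0.06. The members conserved in all domains of life, which tend to be longer (median of 534 bases), had 1 call in 33. Their median log2 fold change was 0.06. Apart from paralogs and copies, the 44 members outside that class (median of 405 bases) had 7 calls and a median of 0.17.

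Genes that are no members showed the same order by length. The 256 other genes coding for at most 300 bases had a median log2 fold change of 0.17, with 16.4% called higher. The median fell to 0.13, 0.10, 0.06 and 0.04 over the ranges up to 400, 500, 700 and 1000 bases, where members had medians of 0.15, 0.15, 0.10 and 0.06. For genes up to 500 bases, the medians of the 1046 other genes were 0.15, 0.22 and 0.02 in WDR6-WKO 1 to 3, beside 0.20, 0.30 and 0.02 for the 49 members of that length. When each library was corrected for a smooth trend on GC content and transcript length, the median over the members fell to 0.02. With that correction 5 members were higher, against 9.05% of all genes, and 2, *Rplp1* among them, were lower, against 8.99%. *Rpl23a*, *Rpl37a*, *Rpl27* and *Rpl41* were among the 5, and the fifth was *Rpl36*. With the replicate block added to that correction, 7 members were higher, against 7.62% of all genes, and 4 lower, against 7.28%. Whether length itself accounts for the ribosomal protein result was not tested.

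**Figure D4:**
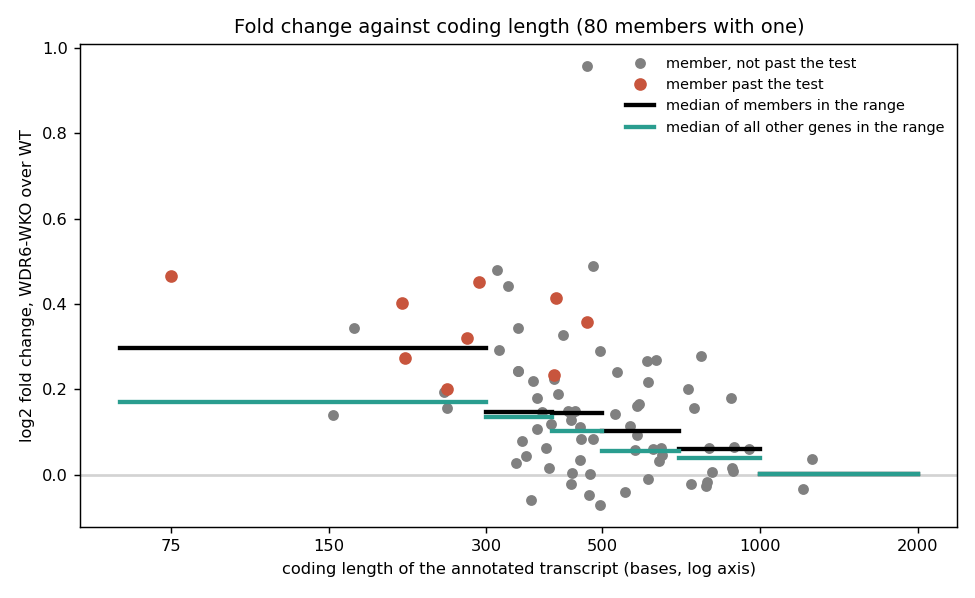
Log2 fold change against coding length (log axis) for the 80 members with a coding sequence (red, past the test), with the median in each length range of members (black) and of all other genes (green). Both medians fall with length, from 0.30 and 0.17 at up to 300 bases to 0.06 and 0.04 between 700 and 1000 bases.

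How reads were divided between a gene and its copies varied between libraries for several members. Over the 84, a median of 56.7% of the 50-base sequences of the annotated transcript recurred in transcripts of other genes, and 2 members had at most 5% in common, of which *Rps3* had 2.96%. Values of single members are therefore uncertain where such copies were counted. *Rps3* was at 571, 524, 516 and 519 CPM in WT and at 626, 707 and 504 CPM in WDR6-WKO (0.20 ± 0.10, edgeR BH-adjusted P = 0.207).

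Pseudogene rows that carry the symbol of a member with -ps were listed for 41 members, and only these rows were summed. *Rpl17* was at 189, 201, 152 and 241 CPM in WT, while its 5 pseudogene rows summed to 278, 287, 319 and 231 CPM. The rows mirrored each other, since the gene was lowest and the copies highest in WT 3, and the reverse held in WT 4. Gene and copies together came to 468, 487, 471 and 472 CPM in WT and to 438, 462 and 474 CPM in WDR6-WKO, and the coefficient of variation in WT was 18.7% for the gene and 1.84% for the sum. For *Rpl21* it was 33.2% for the gene and 6.12% for the sum, of which the copies held 68.4%.

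*Rps10*, at 3.41 to 6.10 CPM one of the lowest members, had 93.6% of its summed CPM in 2 pseudogene rows. *Rpl30* dropped to 100 CPM in WT 3 from 172 to 202 CPM in the other WT libraries, and its 2 pseudogene rows, at 1.81 to 9.58 CPM in those, held 39.8 CPM there. For *Rps27a* the single pseudogene row of its symbol was at 4.13 to 7.82 CPM. The coefficient of variation in WT was 36.6% for the gene and 34.6% for the sum. Its 50-base sequences recurred in 14 other genes, of which *Gm8430* shared the most, and copies without its symbol were not summed. Of the called members, *Rpl23a*, *Rpl27* and *Rpl38* had a pseudogene row of their symbol, which held 22.0%, 1.15% and 20.7% of the sum. Summed with these rows, *Rpl38* had a log2 ratio of group means of 0.32 and *Rpl23a* of 0.24, with 0.27 and 0.36 for the genes alone. For *Rpl23a*, *Rpl37a*, *Rpl41*, *Rps28* and *Rps27l* the gene that shared the most 50-base sequences had another symbol, such as *Gm10132* for *Rpl23a*. Such genes were not summed, so these shares leave out part of the copies.

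**Figure D5:**
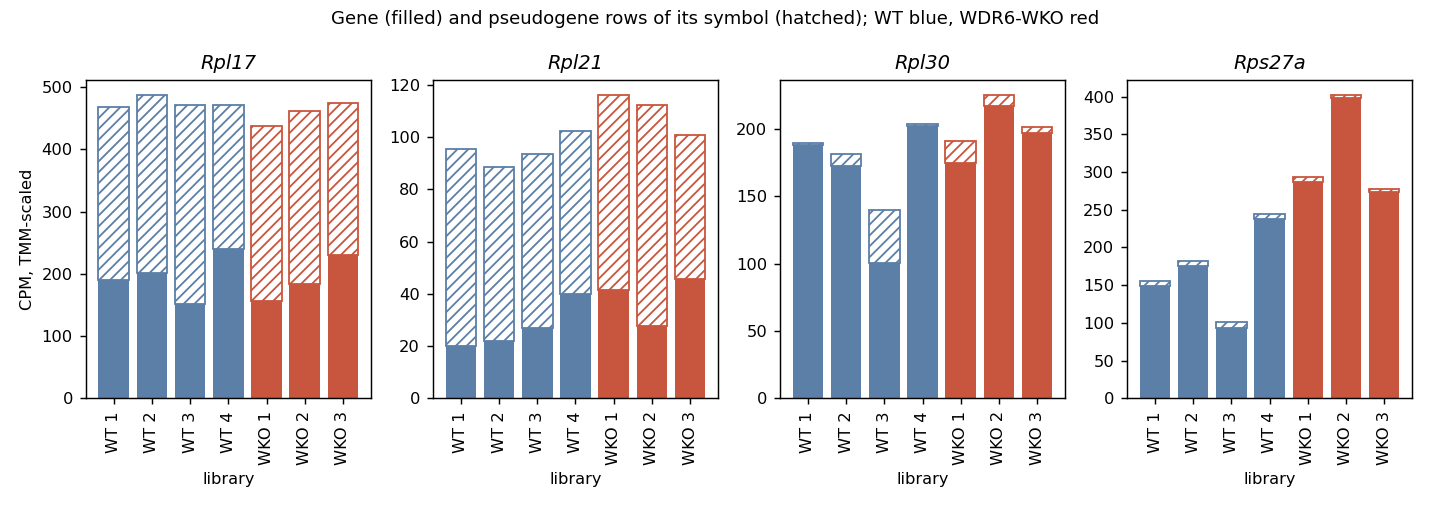
TMM-scaled CPM of 4 members (filled) with the pseudogene rows of the same symbol stacked on top (hatched) in each library. The *Rpl17* stacks stay between 438 and 487 CPM while the filled part ranges from 152 to 241 CPM. In *Rps27a* the pseudogene row of its symbol adds at most 7.82 CPM, and copies named otherwise are not drawn.

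Other parts of the ribosome pathway were read against the same 6.65% of all genes called higher and 6.18% lower. Among 5 ribosomal proteins outside the symbol rule, *Rps27rt* and *Fau* were higher. *Fau*, which encodes a ribosomal protein fused to a ubiquitin-like domain, was at 248.8, 257.7, 235.3 and 246.8 CPM in WT and at 301, 333 and 254 CPM in WDR6-WKO, so WDR6-WKO 3 lay within the WT range (log2 fold change of 0.26 ± 0.07, edgeR BH-adjusted P = 0.0310). *Rack1*, a scaffold protein of the small subunit, had a log2 fold change of 0.01 ± 0.04 (edgeR BH-adjusted P = 0.889).

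Among 77 mitochondrial ribosomal protein genes, the 3 called were all higher (*Mrps23*, *Mrps7* and *Mrps5*), with a median log2 fold change of 0.16. Their median by library was 0.13, 0.25 and -0.01 in WDR6-WKO 1 to 3, close to that of the cytosolic genes in each library. Among 120 ribosome biogenesis genes, 29 (24.2%) were called, all of them higher, with a median of 0.15 and with *Nop56*, *Nop2*, *Nip7* and *Pwp1* of smallest P. *Nop56*, a core protein of box C/D small nucleolar ribonucleoproteins, was at 141, 143, 141 and 141 CPM in WT and at 190, 199 and 172 CPM in WDR6-WKO. Here WDR6-WKO 3 was raised as well.

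Of 26 other genes whose mRNAs carry a TOP motif, 7 were called, all of them higher, and all were hosts of small nucleolar RNAs (*Snhg12*, *Snhg6*, *Gas5*, *Zfas1*, *Snhg5*, *Snhg1* and *Snhg8*). The 19 protein-coding genes of that list, translation factors such as *Eef1a1* and *Eef2* among them, held none of the edgeR calls and had a median log2 fold change of 0.02. *Eef2* was at 2793, 2673, 2660 and 2654 CPM in WT and at 2840, 2880 and 2583 CPM in WDR6-WKO. Among 36 genes of mTOR and LARP1 control, 5 were higher (*Sesn2*, *Myc*, *Rheb* and *Ddit4* of smallest P) and 5 lower (*Sesn3*, *Deptor*, *Eif4ebp2* and *Larp4b* of smallest P). Of 27 genes of ribosome quality control, *Gtpbp2* and *Ascc2* (7.41%) were higher, near the share over all genes, and *Vcp* was lower.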

How the data were processed

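The authors prepared libraries with the NEBNext Ultra RNA kit, sequenced them on an Illumina HiSeq platform and aligned reads to mm10 with Bowtie 2.2.3, named Bowtie2 2.2.3 in the submitters' processing notes. The counter and its annotation were not given in the sources used here. The authors deposited raw read counts per gene symbol for 7 libraries (14819 rows, 14817 distinct symbols). Bowtie2 does not split reads across introns, and intronless copies can take reads of spliced genes.

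Counts were filtered (filterByExpr), scaled by TMM and tested over the whole table with edgeR 4.0.16 (quasi-likelihood, robust; R 4.3.3) and adjusted by Benjamini–Hochberg. The s.e. of a log2 fold change was its size divided by the square root of the F statistic. DESeq2 1.42.0, limma-voom (limma 3.58.1), other scalings and filters, offsets for GC content and transcript length, the replicate number as a block (without WT 4, which has no partner), and leaving out each library were alternatives. Annotation came from GENCODE vM21 (GRCm38), with 99.4% of symbols matched, and start sites from RefSeq. Genes named are all calls, the 5 highest per kilobase, the 3 extremes of fold change in each direction, members with known other functions, and paralogs with parents. *Rpl15*, *Rpl17*, *Rpl30*, *Rps3*, *Rps10*, *Rps15a* and *Rpl35a* were named after their values were seen. Outside the members, so were *Rack1*, *Eef1a1*, *Eef2*, *Snhg5*, *Snhg1*, *Snhg8* and the single cell type markers. Some single genes are not reported here. The members and lists were chosen with earlier results of these data known. Libraries of a group differed by more than sampling noise (chi-square per gene of 3.80 to 16.0), so none was counted as a repeat. With 17816913 to 23668940 reads, a member at 1.81 CPM rests on few reads, and its fold change is imprecise.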

Additional observations from a re-analysis of the deposited data

Results flagged for a closer look

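In WT, the group of 4 libraries, WT 1 stood apart in *Rpl15* and *Rps3*. *Rpl15* was at 325 CPM in WT 1, against 292, 292 and 288 CPM in WT 2 to 4. *Rps3* was at 571 CPM in WT 1, against 524, 516 and 519 CPM. In each case the gap to the nearest library, as a share of the WT range (0.896 and 0.852), was above the 95% critical value of Dixon's test for 4 samples. Chance flags about 1 in 20 groups, and these were 2 of 84 members.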

How the results depend on the processing

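Of the 10 calls, *Rpl23a* and *Rpl37a* were kept under all 16 refits, and the other 8 were lost under at least 1. Corrected for GC content and transcript length, 5 members were higher and 2 lower, against 9.05% and 8.99% of all genes. The median log2 fold change was then 0.0175 over the members, 0.0326 over the large subunit, 0.00795 over the small and 0.0177 over other TOP-mRNA genes. *Rplp1* then had a log2 fold change of -0.15 (edgeR BH-adjusted P = 0.00881), against 0.03. With library sizes alone, the medians of the other TOP-mRNA and the ribosome biogenesis genes were 0.0879 and 0.174. Restricted to the 2 members with at most 5% of shared sequence, 0 were called by edgeR, DESeq2 or limma-voom, and 0 had an unadjusted edgeR P below 0.05. With 2 members, 0 calls cannot show whether shared sequence bears on the calls. Leaving out 1 library gave 4 to 43 members higher, 0 to 1 lower and 15 to 49 with separate ranges in either direction (17.9 to 58.3% of members, against 27.4 to 45.7% of all genes tested). Without WDR6-WKO replicate 3, ranges were separate and higher in 48 members, against 23.3% of all genes, and separate and lower in 1, against 22.4%. The medians then ran from 0.0609 to 0.184 for the members, 0.0686 to 0.230 for the large and 0.0468 to 0.156 for the small subunit, and 0.0279 to 0.0886 for other TOP-mRNA genes. The highest of these counts and medians were those without WDR6-WKO replicate 3. The cause of these shifts was not tested.

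Replicate numbers were not treated as pairs in the main fit. Deviations of same-numbered libraries correlated at 0.133, 0.0631 and 0.0961, and not every library correlated best with its own number. With so few libraries, these values cannot show whether libraries were prepared in pairs. With the replicate block on shared numbers, which drops WT 4, 20 members were higher, against 6.41% of all genes, and the median was 0.118. The replicate block with GC content and transcript length offsets gave 7 higher and 4 lower, against 7.62% and 7.28% of all genes. The medians were then 0.0401 for the members, 0.0523 and 0.00639 for the large and small subunits and 0.0209 for other TOP-mRNA genes. The log2 fold change of *Rplp1* was -0.16.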
